A study of Sus scrofa with 12 samples.

Results

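Interferon-stimulated genes were followed in the liver of Jinhua (JH) and Landrace (LD) pigs, 3 pigs of each breed. JH is a slow growing Chinese breed with high fat deposition and LD is a fast growing lean breed. All pigs were uncastrated males of 70 days of age, no treatment is named for either breed, and each pig gave 1 mRNA library, JH1 to JH3 and LD1 to LD3. A list of 10 gene symbols (ISG15, MX1, MX2, OAS1, OAS2, IFIT1, IFIT2, IFIT3, RSAD2 and IRF7) was looked up among the 31694 rows of each mRNA table, and 9 symbols were found. ISG15, which encodes a ubiquitin-like modifier, was listed at 0 in all 6 libraries, and RSAD2 had no row under that symbol. The other 8 genes had an RPKM (reads per kilobase of gene, scaled to the reads of the library) of 0.5 or more in 3 or more libraries and entered the test.

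Type I interferons are typically secreted when a cell senses viral nucleic acid. They bind receptors on the same and on neighbouring cells, and JAK kinases with STAT and IRF proteins then switch on a large group of genes in nearly every cell type, hepatocytes included. The products of these genes block steps of viral replication. IRF7 is a transcription factor that is itself induced by interferon and increases further interferon production. MX1 and MX2 are dynamin-like GTPases. OAS1 and OAS2 make the 2-5A oligonucleotides that activate RNase L, and the IFIT proteins bind viral RNA or its partners. In the order of genes of the Sscrofa11.1 RefSeq annotation, MX2 and MX1 are neighbours with 0 protein coding genes between them, and the same holds for OAS2 and OAS1, for IFIT2 and IFIT3, and for IFIT3 and IFIT1. Members of such families resemble one another and could share reads, and how shared reads were counted is not given in the sources used here.

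A listed 0 carries little information in these tables. Of the 31694 rows, 12080 were at 0 in all 6 libraries, among them B2M and APOB, a light chain of MHC class I and a main apolipoprotein of the liver. For ISG15 it is therefore said only that it was listed at 0. The row IRG6, a name that RefSeq gives as a synonym of RSAD2 (viperin, an enzyme that makes a chain-terminating nucleotide), was not counted among the 8 genes. Its RPKM was 1.21, 44.4 and 2.46 in JH1 to JH3 and 11.8, 2.55 and 5.82 in LD1 to LD3, so JH2 was highest, by 3.76-fold over LD1. The log2 fold change of IRG6, JH relative to LD, was -0.11 (adjusted p = 0.972 from limma), and JH1 and JH3 were below every LD pig. The liver markers were present in every library, with a summed RPKM of 10 hepatocyte markers between 65917 and 81387 in JH and between 87888 and 98680 in LD, and with APOB as the marker at 0.

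The library JH2 stood apart in these genes. It held the highest value of all 8 genes, and in 7 of the 8 it was at least 2-fold above every other library. Among all 12993 tested genes, JH2 was the highest library in 22.8% and at least 2-fold above every other library in 1.29%. Since JH2 was highest in all 8 genes, no other library could be 2-fold above the rest in any of them. Fold changes between the breeds are therefore given with JH2 and, for the 8 genes and the named genes of the pathway that could be fitted, without it.

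The expression of MX1 was 29.5, 213 and 12.6 RPKM in JH1 to JH3 and 36.7, 9.66 and 31.7 RPKM in LD1 to LD3. JH2 was 5.82-fold above LD1, the next library, while the other JH pigs lay within the range of the LD pigs. Its neighbour MX2 was the lowest of the 8 genes, at 1.20, 2.98 and 1.46 RPKM in JH1 to JH3 and 2.70, 0.811 and 1.62 RPKM in LD1 to LD3. MX2 in JH2 was 1.103-fold above LD1. These values rest on 47 reads in JH2 (95% exact Poisson interval 34.5 to 62.5, counting error only) and 39 reads in LD1 (27.7 to 53.3), so a difference between JH2 and LD1 was not detectable at this depth. The values of the other 7 genes rest on 58 to 4296 reads per library.

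OAS1 had the widest range. It was at 21.9, 243 and 15.8 RPKM in JH1 to JH3 and 16.5, 4.73 and 13.3 RPKM in LD1 to LD3. JH2 was 11.1-fold above JH1 and 51.4-fold above LD2, and without JH2 the breeds still overlapped, since JH3 lay below LD1. OAS2 was at 32.4, 186 and 18.8 RPKM in JH1 to JH3 and 35.5, 19.1 and 41.1 RPKM in LD1 to LD3. JH2 was 4.53-fold above LD3, which held the second place in OAS2 alone.

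IFIT1 was at 13.2, 105 and 9.25 RPKM in JH1 to JH3 and 23.0, 3.87 and 13.1 RPKM in LD1 to LD3. IFIT3, which forms complexes with IFIT1, was at 10.7, 71.1 and 11.5 RPKM in JH1 to JH3 and 26.4, 7.38 and 18.6 RPKM in LD1 to LD3. In both genes LD1 came second and LD2 was lowest. IFIT2 was at 5.46, 22.6 and 8.16 RPKM in JH1 to JH3 and 9.31, 3.11 and 5.46 RPKM in LD1 to LD3. JH2 was 4.58-fold above LD1 in IFIT1, 2.69-fold in IFIT3 and 2.43-fold in IFIT2.

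IRF7 was at 15.0, 74.3 and 6.85 RPKM in JH1 to JH3 and 28.0, 12.5 and 13.5 RPKM in LD1 to LD3. JH2 was 2.65-fold above LD1 and 10.8-fold above JH3, the lowest library for this gene.

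**Figure D1:**
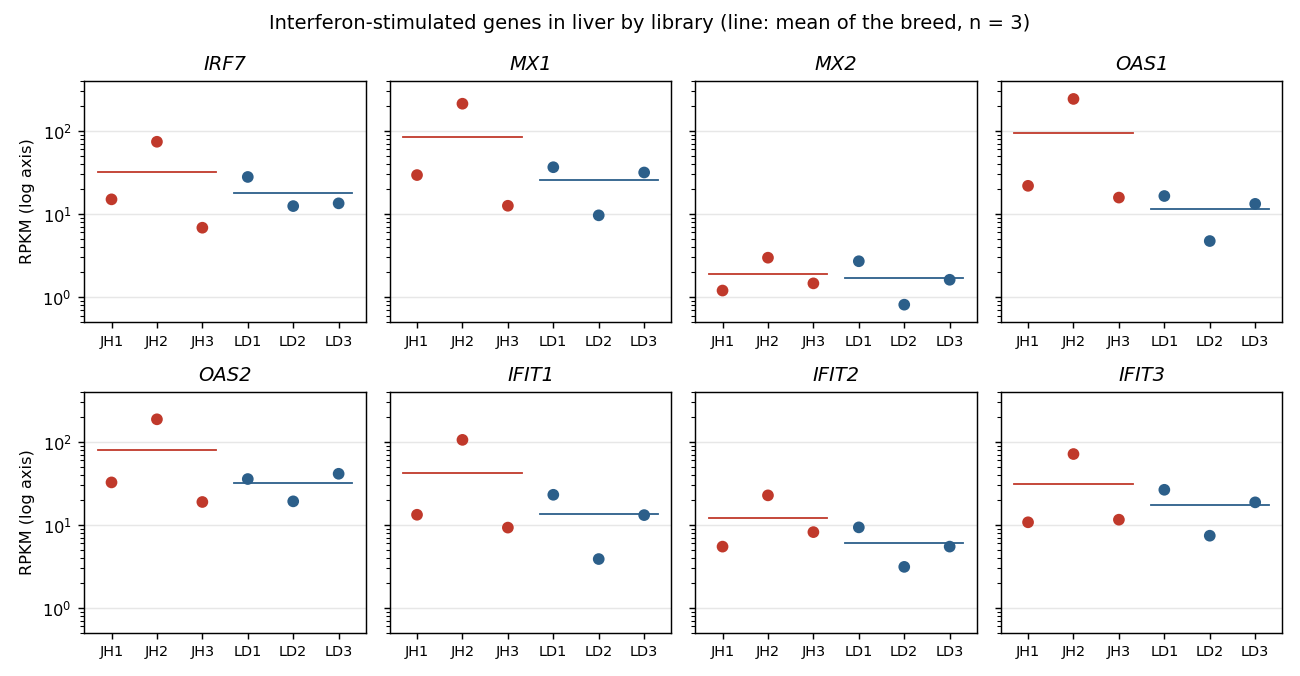
RPKM of the 8 genes (log axis) in each library, JH in red and LD in blue, with a line at the mean of each breed (n = 3). JH2 is the highest point in all 8 panels, and the other JH points lie among or close to the LD points.

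By the median RPKM over the 6 libraries, OAS2 (34.0) came first and was followed by MX1 (30.6), OAS1 (16.1), IFIT3 (15.1), IRF7 (14.3), IFIT1 (13.1), IFIT2 (6.81) and MX2 (1.54). IFIT1 was above IFIT2, and IFIT2 above MX2, in 6 of 6 libraries. None of the other neighbours in this order kept its place in all libraries. OAS2 was above MX1 in 4, MX1 above OAS1 in 4, OAS1 above IFIT3 in 3, IFIT3 above IRF7 in 2, and IRF7 above IFIT1 in 4 of the 6 libraries.

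The 8 genes shared an order of libraries beyond JH2. LD1 was the second library in 6 of the 8 genes (19.6% of all tested genes), the exceptions being OAS1 and OAS2. LD2 was the lowest library in 6 of the 8 (10.9% of all tested genes), the exceptions being IRF7 and OAS2. LD1 was the highest LD library in 7 of the 8 genes (39.0% of all tested genes) and LD2 the lowest LD library in all 8 (23.0% of all tested genes). Within LD, the order LD1, LD3, LD2 from high to low was found in 7 of the 8 genes, against 15.0% of all tested genes, and OAS2 was the exception. Within JH, JH1 was above JH3 in 5 of the 8, against 68.8% of all tested genes.

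As a description over 6 libraries, the Spearman rho of the 28 gene pairs ranged from 0.486 to 1.00 with a median of 0.800. The same pairs gave a median rho of 0.650 without JH2, with a range from 0.10 to 1.00. The pairs share their libraries and their depth, and neighbouring genes could share reads. The highest rho was that of MX2 with IFIT3, and the lowest that of OAS1 with OAS2, which lie side by side.

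**Figure D2:**
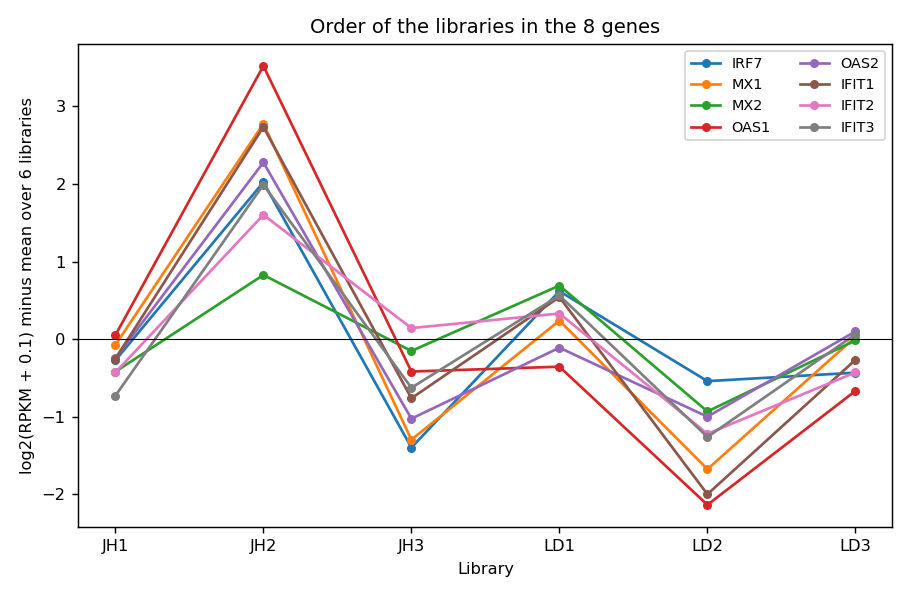
Level of each of the 8 genes in each library, as log2(RPKM + 0.1) minus the gene's mean over the 6 libraries, 1 line per gene. All lines peak at JH2, OAS1 has the widest range and MX2 the narrowest, and within LD all lines are lowest at LD2.

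The breeds were compared with limma on log2(RPKM + 0.1) over all 12993 tested genes. A gene counted as a DEG where its adjusted p (Benjamini-Hochberg) was under 0.05 and JH and LD differed by more than 1 on the log2 scale, and all fold changes are those of JH relative to LD. Of the 8 genes 0 were called, against 310 DEGs, or 2.39% of all tested genes (1.02% with JH higher and 1.36% with JH lower). At an unadjusted p under 0.05, 1 of the 8 passed, with a higher level in JH, against 17.9% of all tested genes in either direction and 8.35% higher in JH. In all 8 genes the JH and LD values overlapped, while they did not overlap in 23.4% of all tested genes (10.8% with JH higher). All 8 log2 fold changes were above 0, as were 52.9% of those of all tested genes. Their median was 0.77, and the median over all tested genes was 0.04. Without JH2, 3 of the 8 were above 0 and the median was -0.21, with a median over all genes of -0.02. In that fit 0 of the 8 were called, and 1.14% of all genes.

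OAS1 was the gene that passed at the unadjusted p. Its mean RPKM was 93.7 ± 130 (SD, n = 3) for JH and 11.5 ± 6.08 (SD, n = 3) for LD. The log2 fold change was 2.10 (standard error, SE, 0.92, 95% interval 0.03 to 4.17, adjusted p = 0.272 from limma), and a two-sided exact permutation test gave p = 0.2, where 3 pigs against 3 cannot go below 0.1. Without JH2 the log2 fold change of OAS1 was 0.87 (SE 0.51, adjusted p = 0.486 from limma). The mean RPKM of MX1 was 85.1 ± 111 (SD, n = 3) for JH and 26.0 ± 14.4 (SD, n = 3) for LD. Its log2 fold change was 0.94 (95% interval -1.12 to 2.996) and turned to -0.22 (95% interval -1.58 to 1.15) without JH2. The SD of MX1 in JH was larger than the difference between the breeds.

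IFIT1 had a log2 fold change of 1.15 (95% interval -0.87 to 3.17), which fell to 0.07 without JH2. The log2 fold change of IFIT2 was 0.88 with all libraries and 0.30 without JH2. In OAS2 (0.67), IFIT3 (0.42), IRF7 (0.24) and MX2 (0.17) the log2 fold change changed sign without JH2, to -0.30, -0.47, -0.72 and -0.20. Over the 8 genes the adjusted p from limma ranged from 0.272 to 0.901, and without JH2 from 0.486 to 0.974. With all libraries the intervals of IRF7, MX1 and IFIT3 reach beyond a 2-fold change in both directions, so these libraries set only wide bounds on a difference between the breeds.

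**Figure D3:**
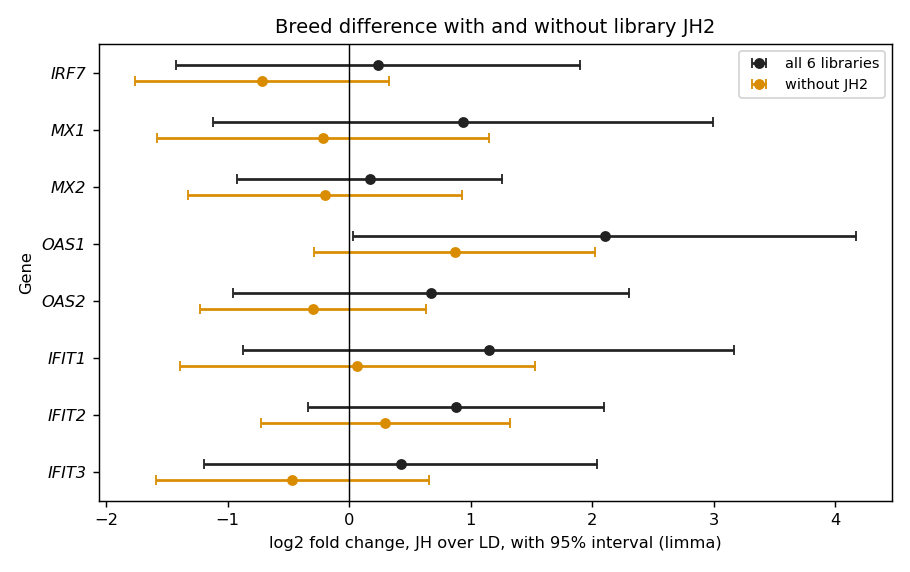
Log2 fold change (JH over LD) for each of the 8 genes with its 95% interval from limma, with all 6 libraries (black) and without JH2 (orange). Apart from OAS1 with all 6 libraries, the intervals include 0, and the points of MX1, MX2, OAS2, IFIT3 and IRF7 move to the other side of 0 without JH2.

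The ratio of OAS1 to the other genes was looked at after the values had been seen. OAS1 over OAS2 was 0.676, 1.31 and 0.840 in JH1 to JH3 and 0.464, 0.247 and 0.323 in LD1 to LD3. Every JH pig was above every LD pig, with or without JH2, although neither gene separated the breeds by itself. On the log2 scale the ratio had a mean of -0.14 ± 0.48 (SD, n = 3) over the JH pigs and of -1.57 ± 0.45 (SD, n = 3) over the LD pigs, a difference of 1.43. No test is given for the ratios, since they were chosen by their values. OAS1 over MX1 ranged from 0.742 to 1.25 in JH and from 0.419 to 0.490 in LD. OAS1 over IFIT3 ranged from 1.37 to 3.43 in JH and from 0.626 to 0.713 in LD.

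The breeds lay apart in 6 of the 7 ratios with OAS1, the exception being OAS1 over IFIT2. Among all 28 ratios of the 8 genes they lay apart in 7, the other being MX2 over IFIT2. The values of single genes did not overlap between the breeds in 23.4% of all tested genes. No share was computed for ratios of other gene pairs, so these counts only describe the 6 pigs and are not read as a breed difference in OAS1. On the level relative to the mean of the 8 genes, the breeds lay apart in OAS1 (higher in JH) and IFIT3 (lower in JH), or 2 of the 8, and in 5.49% of all tested genes. This share is that of levels relative to a mean and not of ratios of gene pairs. That mean rises in JH2, with a centred log2 level of 2.22 against -0.30 in JH1 and -0.69 in JH3. Subtracting it cancels the rise in the 8 genes and adds an opposite shift to genes without the rise. The 5.49% is therefore no like baseline for the 2 of the 8. The ratios share OAS1 and the same 6 pigs, so they are not independent of each other.

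**Figure D4:**
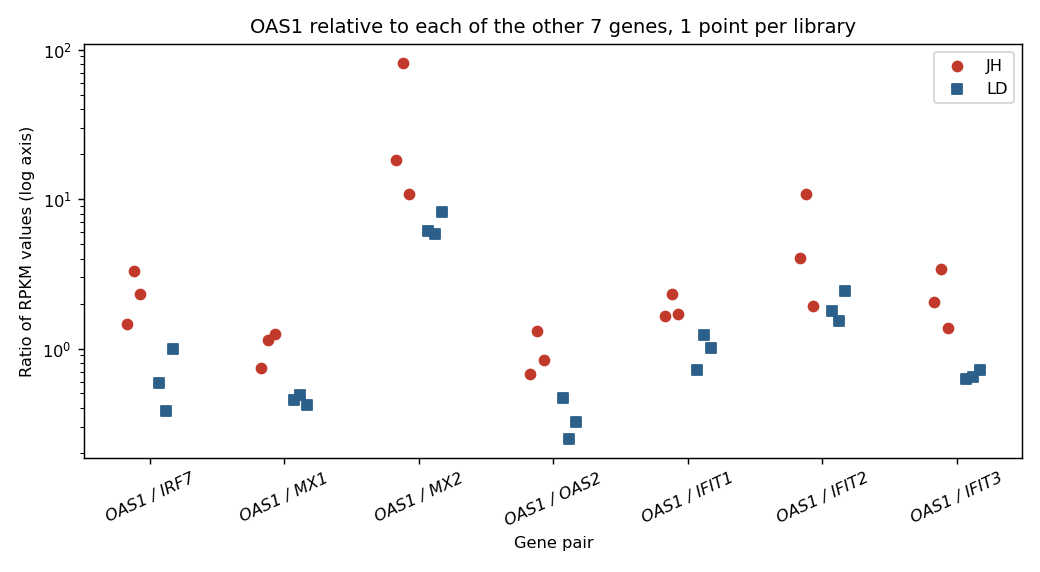
RPKM of OAS1 divided by that of each of the other 7 genes (log axis), 1 point per library, JH as red circles and LD as blue squares. The JH points lie above the LD points in all pairs except OAS1 over IFIT2.

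The other genes of the pathway were described from lists of 119 symbols by role, of which 78 were tested and 0 were called in either direction by limma, against 2.39% of all tested genes. At an unadjusted p under 0.05, 7 of the 78 passed, 5 of them with higher levels in JH, against 17.9% of all tested genes in either direction. JH2 was the highest library in 63 of the 78 and at least 2-fold above every other library in 30. The median log2 fold change was 0.21 over the 78 and -0.21 without JH2.

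Among ligands, 36 rows carry interferon names and 32 of them were at 0 in all libraries. IFNG, the type II interferon of T and NK cells, was at 3.42 RPKM in JH2 and 0.393 RPKM in LD1 and was listed at 0 in the other libraries. IFNB1, a type I interferon, was at 0.230 RPKM in JH2 and at 0 elsewhere. IFN-ALPHA-16 was at 0.305 RPKM in JH1 and 0.452 RPKM in JH2, and IFN-DELTA-1 at 0.128 RPKM in LD1. Apart from IFNG in JH2, these values lie under the 0.5 RPKM of the filter and can rest on very few reads. Read counts are not given for these rows, so a low value in JH2 beside a listed 0 elsewhere is not read as a difference. No ligand passed the filter, so none was tested.

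Among receptors and the signal chain JH2 was not high. Of 2 tested receptor genes JH2 was highest in 1 and 2-fold above the rest in 0. The receptor subunit IFNGR1 ranged from 9.12 RPKM in LD2 to 11.9 RPKM in JH2, and the breeds differed by a log2 fold change of 0.17 (SE 0.22), and of 0.14 without JH2. IFNLR1, the receptor subunit for lambda interferons, had a log2 fold change of -0.19 (SE 0.63), and of -0.51 without JH2. Its values rest on only 1 to 6 reads per library, so little can be read from them. Of 4 tested JAK-STAT genes JH2 was highest in 1 and 2-fold above the rest in 0. The kinase TYK2 had a log2 fold change of -0.54 (SE 0.23, adjusted p = 0.265 from limma), and of -0.65 without JH2. JAK1 had a log2 fold change of -0.49 (SE 0.40), and of -0.08 without JH2, and was lowest in JH2, at 5.40 RPKM against 10.23 to 19.8 RPKM in the other libraries.

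Among 13 tested nucleic acid sensors and adaptors, JH2 was highest in 8 and at least 2-fold above every other library in 3. These 3 were DHX58, IFIH1 and MB21D1, named after their values were seen. IFIH1 (MDA5), a sensor of double-stranded RNA that is itself induced by interferon, was at 16.7 RPKM in JH2 and between 3.47 and 6.37 RPKM elsewhere, with a log2 fold change of 0.53 (SE 0.49) that turned to -0.07 without JH2. The RNA sensor TLR8 had a log2 fold change of -0.90 (SE 0.54), and of -0.99 without JH2. Of 5 other interferon regulatory factors JH2 was highest in 4 and 2-fold above the rest in 0. IRF5 had a log2 fold change of -0.37 (SE 0.34), and of -0.72 without JH2.

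Of 47 further tested interferon-stimulated genes, JH2 was highest in 44 and at least 2-fold above every other library in 26. LD1 was the highest LD library in 34 of the 47, against 39.0% of all tested genes. The median log2 fold change of this list was 0.29, and -0.21 without JH2. GBP5, an interferon-inducible GTPase, had the smallest p of the list, with a log2 fold change of 1.57 (SE 0.45, adjusted p = 0.117 from limma). It was at 1.01, 2.19 and 1.02 RPKM in JH1 to JH3 and between 0.314 and 0.420 RPKM in LD, so it passed the filter of 0.5 RPKM in 3 libraries through JH alone, the breed where it was higher, and it could not be fitted without JH2. The apoptosis factor XAF1 followed with 1.86 (SE 0.62, adjusted p = 0.165 from limma), and with 1.29 without JH2.

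Among 7 tested negative regulators, JH2 was highest in 5 and 2-fold above the rest in 1, USP18, which removes ISG15 from proteins and dampens the receptor signal. USP18 was at 78.0 RPKM in JH2 and between 2.95 and 14.3 RPKM elsewhere. SOCS1, an inhibitor of JAK kinases, differed by a log2 fold change of 1.09 (SE 0.34, adjusted p = 0.140 from limma), and of 0.81 without JH2. The phosphatase PTPN2 had one of 0.61 (SE 0.26), and of 0.44 without JH2.

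**Figure D5:**
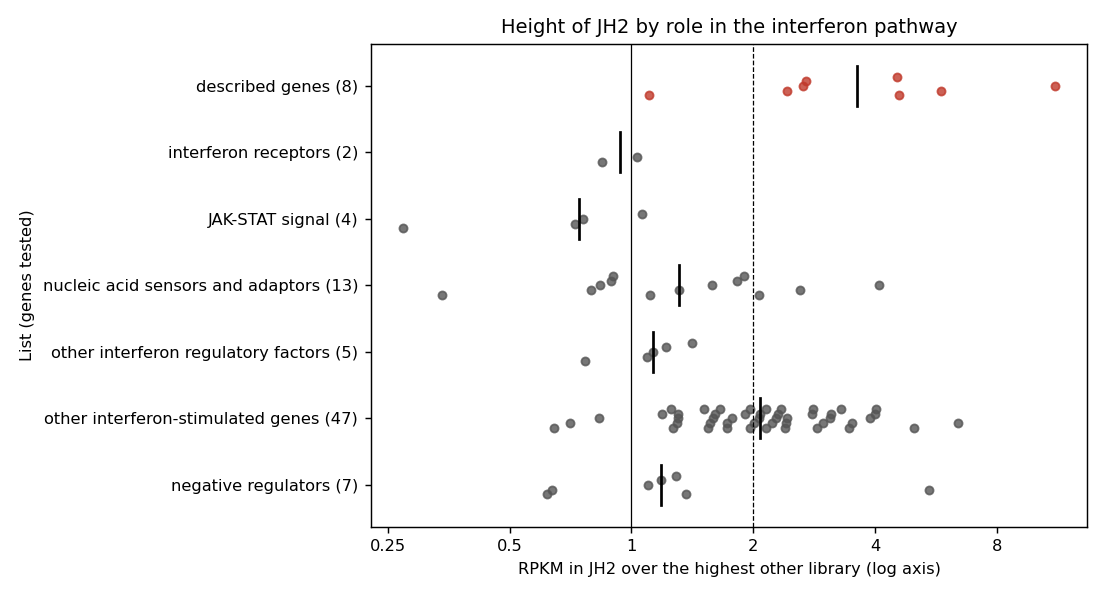
RPKM in JH2 divided by the highest value of the other 5 libraries (log axis) for the 8 genes and for the tested genes of each list by role, 1 point per gene with a bar at the median. The solid line marks equality and the dashed line 2-fold. The medians are 2.08 for the 47 further interferon-stimulated genes and 0.742 for the JAK-STAT genes.

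The genes most like the 8 were sought by Pearson r over the 6 libraries with their mean centred log2 level, among 8041 genes with a log2 range of at least 1. The highest were BCL2A1, UBE2L6, LOC733579, IFI44L, IFIH1, IFIT5, USP18, IRG1, LOC100523745 and ISG12(A), with r from 0.983 to 0.997. Without JH2 their r lay between 0.929 and 0.984. The genes had been picked by r over libraries that include these, so the values without JH2 are no separate check of the likeness. UBE2L6, the conjugating enzyme for ISG15, was at 91.8 RPKM in JH2 and between 7.40 and 22.9 RPKM elsewhere. The most abundant of the 10 was ISG12(A), at 1176 RPKM in JH2 and 150.1 RPKM in LD2, the lowest library, with LD1 second. BCL2A1, a survival factor of the BCL2 family, was the gene with the highest r and had 7.23 RPKM in JH2 and 1.99 to 3.63 RPKM elsewhere.

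Markers of other cells also moved with JH2. The summed RPKM of 11 T and NK cell markers was 137 in JH2 and between 31.8 and 59.1 in the other libraries. JH2 was the highest library in 10 of the 11 and at least 2-fold above every other library in 6. The exception was CD4, at 3.55 RPKM in JH2 and between 6.02 and 13.5 RPKM in LD. The summed RPKM of 7 B and plasma cell markers was 84.0 in JH2 and between 21.3 and 35.8 elsewhere, and JH2 was highest in 4 of 5 tested markers and 2-fold above the rest in 2. That of the 9 macrophage markers found among 12 symbols was 2089 in JH2 and between 893 and 1546 elsewhere, with CD163 listed at 0. In this list JH2 was highest in 5 of 8 tested markers and 2-fold above the rest in 0, and C1QC (909 RPKM in JH2) and C1QA (705 RPKM in JH2) made up most of the sum, while CD14, VSIG4 and CSF1R were higher in other libraries. Markers of plasmacytoid dendritic cells were at 6.83 in JH2 and between 4.69 and 11.8 elsewhere, but 3 of their 6 symbols had no row. Neutrophil markers were at 14.8 in JH2 and between 7.003 and 41.7 elsewhere, and endothelial markers at 209 in JH2 and between 162 and 272 elsewhere. In whole liver, more cells of a type and more RNA per cell cannot be told apart, and the part of these cells in the level of the 8 genes was not tested.

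The summed RPKM of stellate cell markers was 77.97 to 99.9 in JH and 189 to 382 in LD. That of red blood cell markers was 92.2 to 124 in JH and 215 to 398 in LD. Both sums separated the breeds and did not follow JH2, and the same held for the hepatocyte sum given above. Single hepatocyte markers differed in direction. ALB, TF and SERPINA1 were lower in JH without overlap. APOA1 was higher in JH, at 10301 to 22277 RPKM against 7399 to 10116 RPKM in LD. TTR, APOH, FGB, AMBP and HPX overlapped between the breeds. The part of these cells in the difference between the breeds was not tested. The ribosomal RNA gene RN18S was lowest in JH2 (1570 RPKM) and highest in JH3 (62257 RPKM), with 5991 RPKM in JH1 and 7309, 2108 and 20160 RPKM in LD1 to LD3. LD2, the library with the next lowest RN18S, was the lowest library in 6 of the 8 genes, and the part of ribosomal RNA in these levels was not tested.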

How the data were processed

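Liver mRNA of 3 JH and 3 LD pigs was sequenced in 6 libraries. After removal of adaptors and low quality reads, the authors mapped single 50 bp reads with TopHat2 2.0.13 to Sus scrofa 10.2 and used gfold to count them. The deposited tables hold RPKM, 1 library per table. The 6 miRNA libraries of the same breeds were not used here.

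Libraries were grouped by their labels. Genes that reached 0.5 RPKM in 3 or more libraries were tested on log2(RPKM + 0.1) with limma 3.58.1 in R 4.3.3 (lmFit, then eBayes with an intensity trend). This scale understates the change of low genes. P-values were adjusted over all 12993 tested genes. The design is unpaired, and the study describes no pairing of pigs. The members and lists were chosen with earlier results of these data known. Named genes were the members, from each pathway list the called genes or otherwise the 2 with the smallest p, and the 10 most similar genes. Others are marked as named after their values were seen. A few genes of the lists are not reported here.

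Reads behind the members and IFNLR1 were recovered from the RPKM steps. The totals that the values were divided by ranged from 5744907 to 7914510 reads per library, with JH1 lowest. Intervals cover counting error only. In a simulated 3 against 3 comparison with 12553 genes, limma called 197 of 200 genes that had been shifted by 2 log2 units and made 10 false calls. This share does not carry over to the members, whose SE with all libraries ranged from 0.48 to 0.92. OAS1, with a log2 fold change of 2.10 and an SE of 0.92, was not called (adjusted p = 0.272 from limma). Simulated reads were recovered exactly for 490 of 498 resolved genes. Alternatives were other pseudocounts and filters, quantile and median scaling, the replicate block, no trend, no fold change limit and each library left out. Python 3.11.15 with pandas 2.3.3, numpy 2.4.6, scipy 1.17.1 and matplotlib 3.10.9 was used.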

Additional observations from a re-analysis of the deposited data

How the results depend on the processing

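The number of the 8 genes called was 0 in limma under every alternative tried. The 310 DEGs over all genes went to 199 with a pseudocount of 0.01, to 200 without a filter on low values, and to between 63 and 403 with each library left out (63 without LD1, 84 without LD2, 116 without LD3, 145 without JH2, 157 without JH1). The number of pathway genes called moved from 0 to 1 (SOCS1) without JH3 and was 0 in the other fits. The median log2 fold change of the 8 genes was 0.77 and lay between -0.21 (without JH2) and 1.19 (without JH3) with 1 library left out, and it was 0.34 without LD2.

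With 1 library left out, the log2 fold change ranged from -0.72 to 0.99 for IRF7, from -0.22 to 1.82 for MX1, from -0.25 to 0.56 for MX2, from 0.87 to 2.84 for OAS1, from -0.30 to 1.35 for OAS2, from 0.07 to 1.81 for IFIT1, from 0.30 to 1.31 for IFIT2 and from -0.47 to 0.89 for IFIT3. The sign changed without JH2 in 5 of the 8, and without LD2 in MX2 (-0.25) and IFIT3 (-0.10). The cause was not tested. No sign changed under the other alternatives.

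With the replicate number as a block, 253 genes and 0 of the 8 were called, and the median stayed at 0.77. Deviations of same-numbered libraries correlated at -0.02, 0.05 and 0.18, so the numbers were not taken to pair pigs. Among the 8 genes, depth limits MX2 most, at 13 to 47 reads per library.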

Other observations

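Single chemokine and antigen processing genes of the pathway lists are given here as values, picked after their values were seen and with no test. CXCL10, a chemokine that attracts T cells, was at 227 RPKM in JH2, 102 in JH3, 48.9 in LD1, 22.8 in LD3, 14.9 in LD2 and 8.17 in JH1. JH3, which lay below LD1 in all 8 genes, thus held the second place for CXCL10. The second place was held by LD1 in CXCL9 (12.8 RPKM, with 22.1 RPKM in JH2) and by LD3 in CXCL11 (1.88 RPKM, with 2.45 RPKM in JH2). In genes of antigen processing, JH2 was above the next library by 4.01-fold in TAP1, 3.12-fold in TAP2, 2.79-fold in PSMB8, 2.06-fold in PSME2 and 1.65-fold in PSME1. ISG20, an RNA exonuclease, was at 41.9 RPKM in JH2 and between 1.62 and 6.54 RPKM elsewhere, and its log2 fold change of 0.01 with all libraries was -1.41 without JH2.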
